A study of Homo sapiens with 6 samples.

Results

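The interferon regulatory factors (IRFs) are transcription factors that bind DNA through a conserved domain at their amino end and switch on, or hold back, interferon genes and the genes that interferon induces. The rows of the deposited expression table named IRF1, IRF2, IRF3, IRF4, IRF5, IRF7, IRF8 and IRF9 were taken, 8 of its 60671 genes, each found once. The cells were HaCaT, an immortalised keratinocyte line of human origin, labelled wild type. Cells were kept for 24 h in serum-free high-glucose medium with 160 ng/mL of interferon beta (IFN-beta) added in 3 libraries and none added in the 3 control libraries. All comparisons are between these groups, and separate cultures are not stated in the labels. The p-values below therefore reflect the spread between libraries, which may be technical.

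Family members have distinct roles. IRF9 is the DNA-binding subunit of the complex ISGF3, to which STAT2 belongs and which carries the signal of the IFN-beta receptor to DNA. IRF3 is made constantly, lies latent in the cytoplasm and is activated by the kinase TBK1 when nucleic acids are sensed. IRF7, its close relative, is itself an interferon-induced gene and broadens the later production of interferons. IRF1 activates and IRF2 mostly represses an overlapping set of promoters, IRF5 acts downstream of Toll-like receptors, and IRF4 and IRF8 are factors of lymphoid and myeloid cells.

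Libraries held between 25832158 and 30594527 reads. Keratinocyte identity was checked on KRT5 and KRT14, the keratin pair of basal keratinocytes. KRT5 stood at 1374 ± 81.0 FPKM (read fragments scaled by transcript length and library depth) in control libraries and 965 ± 14.8 with IFN-beta (SD, n = 3 each), and KRT14 at 1033 ± 42.8 and 1099 ± 32.2 FPKM. KRT5 fell by 0.51 on the log2 scale (limma adjusted p = 6.04e-05, and by 0.31 after quantile normalization), and KRT14 did not pass (0.09, limma adjusted p = 0.137), although it passed with quantile-normalized values (0.29, 0.00052) and with values scaled to an equal sum (0.14, 0.0366). Of 10 keratinocyte markers 6 were called higher and 1 lower, where 22.5% of all genes tested were called higher and 42.4% in either direction. Summed over all 10 the level was 4097 to 4424 FPKM in control and 4196 to 4265 in IFN-beta libraries. The 10 immune cell markers summed to 3.33 to 4.65 FPKM in control and 4.47 to 4.92 in IFN-beta libraries, with 3 of them at 0 in all libraries. PTPRC, the pan-leukocyte gene, stood at 0.0231 FPKM in control library 1 and at 0 in the others. CD14 stood at 3.18 ± 0.678 FPKM in control and 3.51 ± 0.274 in IFN-beta libraries and did not pass. ITGAM was called higher (0.54, limma adjusted p = 0.0322), from 0.519 ± 0.111 to 0.989 ± 0.218 FPKM. The 6 melanocyte markers summed to 4.14 to 4.69 and 3.34 to 3.91 FPKM, with TYR, MLANA and TYRP1 at 0. Among them MITF was called lower (-0.39, limma adjusted p = 0.0254) and PMEL did not pass (0.11). The 8 fibroblast markers summed to 1.77 to 2.47 and 2.54 to 3.29 FPKM, with DCN at 0. COL1A1 was called higher (0.48, limma adjusted p = 0.0392). In such bulk samples, more cells expressing a gene and more RNA per cell cannot be told apart.

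RefSeq start-site windows (build GRCh38.p14) were matched for 5 of the 8 genes by symbol, in 9 windows of 300 bases, from 250 before to 50 after a start. The genes without an entry were IRF2, IRF3 and IRF7. Windows were searched on both strands for TTCNNNGAA, the palindromic core of the element that STAT dimers bind, and for a pair of GAAA 2 bases apart, the core of the interferon-stimulated response element that ISGF3 and IRFs bind. Among the 5 genes, IRF1 and IRF9 each held 1 match to TTCNNNGAA, and the windows of IRF4, IRF5 and IRF8 held none. These windows are printed because they hold the matches. The IRF1 window is chr5:132490724-132491023 on the minus strand and the IRF9 window chr14:24161015-24161314 on the plus strand, both 5′ to 3′ with the match in capitals.
IRF1: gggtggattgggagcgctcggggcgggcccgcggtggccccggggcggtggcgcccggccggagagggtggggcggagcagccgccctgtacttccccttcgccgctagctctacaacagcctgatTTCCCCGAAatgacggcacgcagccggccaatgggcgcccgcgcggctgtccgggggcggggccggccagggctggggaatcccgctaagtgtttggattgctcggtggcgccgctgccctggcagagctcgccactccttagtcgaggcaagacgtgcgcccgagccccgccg
IRF9: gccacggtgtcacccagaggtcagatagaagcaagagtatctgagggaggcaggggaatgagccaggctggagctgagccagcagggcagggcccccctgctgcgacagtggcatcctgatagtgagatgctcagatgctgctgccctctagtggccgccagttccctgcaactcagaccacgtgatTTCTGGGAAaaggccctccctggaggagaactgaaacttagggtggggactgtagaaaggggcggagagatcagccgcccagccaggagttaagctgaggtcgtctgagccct

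In IRF1 the match TTCCCCGAA began at base 127 of the window (position -124 from the start), and in IRF9 the match TTCTGGGAA began at base 188 (position -63). A match to TTCNNNGAA was present in 7.66% of all 35116 windows and in 12.2% of the 343 windows of genes that rose at least 2-fold here. The GAAA pair was found in none of the 9 windows, against 3.57% of all windows and 23.3% of those of genes that rose at least 2-fold. Among the 5 genes with windows only IRF9 was called with a rise of at least 2-fold, so absence from so few windows says little. Pairs of GAAA at other spacings and other forms of the element were not searched for. A match is a run of letters, not a measured binding site. The RefSeq start sites of IRF9 and IRF4 coincide with the gene start in the deposited table, and that of IRF1 lies 4 bases from it. Those of IRF5 lie 470 to 3811 bases from it and those of IRF8 3668 and 3853 bases. The bases around the gene start of IRF8 in that table were thus not searched. Whether a match goes with the response to IFN-beta was not tested.

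A gene was tested where its mean over the 6 libraries was at least 0.5 FPKM, which 6 members reached, and IRF4 and IRF8 did not. Of the 6, limma on log2(FPKM + 0.5) with Benjamini-Hochberg adjustment over 15163 genes called 5 higher with IFN-beta at an adjusted p under 0.05, none lower, and left IRF5. Across all genes tested 42.4% were called, and 22.5% were called higher, so a call alone is common in this comparison. A rise of at least 1 on the log2 scale was called in 2 members, IRF7 and IRF9, against 2.96% of all genes. The groups did not overlap, with IFN-beta higher, in 5 of the 6 tested members, against 28.6% of all genes. The median log2 change was 0.40 in the 6 members and 0.01 over all genes.

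**Figure D1:**
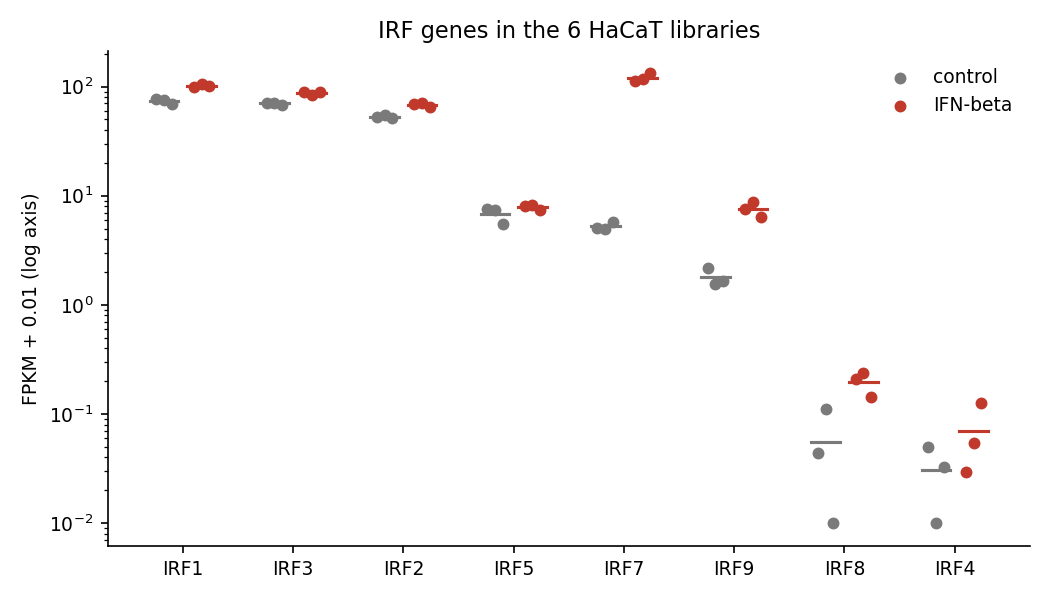
FPKM of the 8 IRF genes in each library (log axis, 0.01 added so that 0 can be drawn), grey for the 3 control and red for the 3 IFN-beta libraries, with bars at the group means. IRF7 moves from about the level of IRF5 to above IRF1, while IRF4 and IRF8 stay below 0.3 FPKM.

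IRF7 had the largest change in the family. The gene (ENSG00000185507) lies on chromosome 11 from 612553 to 615983. Its level was 5.09, 4.96 and 5.74 FPKM in control libraries 1 to 3, and 113, 117 and 132 FPKM in IFN-beta libraries 1 to 3. The 2 groups were far apart, the lowest IFN-beta library standing at 113 FPKM and the highest control at 5.74. The ratio of the group means was 23.0, from 601 reads over the control libraries and 14200 over the IFN-beta libraries. On the log2(FPKM + 0.5) scale it rose by 4.40 ± 0.073 (SE), with a 95% interval of 4.23 to 4.56 (limma adjusted p = 4.12e-10). By size of change it stood at place 20 among the 15163 genes tested. In control libraries 36.6% of tested genes had a lower level than IRF7, and with IFN-beta 92.6% did.

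IRF9 was the other tested member whose mean level more than doubled. The gene (ENSG00000213928) lies on chromosome 14 from 24161265 to 24166565. It stood at 2.18, 1.53 and 1.65 FPKM in control libraries and at 7.55, 8.78 and 6.31 FPKM with IFN-beta. Every IFN-beta library lay above every control, with 37 to 56 reads per control library and 168 to 203 per IFN-beta library. The rise was 1.82 ± 0.142 on the log2 scale, with a 95% interval of 1.49 to 2.14 (limma adjusted p = 1.79e-05), at place 144. Its absolute level is uncertain. Of its exonic bases in GENCODE release 29, 48.4% are shared on the same strand with AL136295.5, a gene model that overlaps it and stood at 0.0724 ± 0.0213 FPKM in control libraries and 0.123 ± 0.0457 FPKM with IFN-beta, below the level tested. How reads in shared exons were counted is not given in the sources used here, and their part in the IRF9 level was not tested.

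IRF1 and IRF2, the activator and repressor pair, both rose by less than 1.5-fold from high starting levels. IRF1 (ENSG00000125347, chromosome 5 from 132481609 to 132490777) stood at 76.1, 75.8 and 69.7 FPKM in control libraries and at 98.3, 105 and 100.2 FPKM with IFN-beta. This was a rise of 0.45 ± 0.047 on the log2 scale (95% interval 0.35 to 0.56, limma adjusted p = 9.63e-05). IRF2 (ENSG00000168310, chromosome 4 from 184387729 to 184474550) stood at 52.8, 55.0 and 51.5 FPKM in control libraries and at 69.1, 70.7 and 64.4 FPKM with IFN-beta. Its rise was 0.35 ± 0.047 (95% interval 0.25 to 0.46, limma adjusted p = 0.00042). In both genes all 3 IFN-beta libraries exceeded all 3 control libraries.

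The noncoding gene IRF1-AS1 overlaps IRF1 on the opposite strand and shares 22% of the exonic bases of IRF1. It went from 3.99 ± 0.511 to 6.28 ± 0.392 FPKM (n = 3 each), a rise of 0.60 ± 0.101 on the log2 scale (limma adjusted p = 0.0016). Whether the counting used strand is not given in the sources used here, so reads of the pair cannot be told apart in the shared bases.

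IRF3, the constitutive member, rose as well, by the least of the 5 called genes. The gene (ENSG00000126456) lies on chromosome 19 from 49659569 to 49665875. Its level was 71.0, 71.3 and 68.1 FPKM in control libraries and 89.5, 84.4 and 89.3 FPKM with IFN-beta, with no overlap. The rise was 0.32 ± 0.040 on the log2 scale (95% interval 0.23 to 0.41, limma adjusted p = 0.0003). BCL2L12, the head-to-head neighbour that shares 19.3% of the exonic bases of IRF3 on the opposite strand, went the other way. It went from 37.1 ± 0.926 to 31.5 ± 0.295 FPKM, a change of -0.23 ± 0.040 (limma adjusted p = 0.0018). With the use of strand in counting not given, reads of IRF3 and BCL2L12 cannot be told apart in the shared bases either.

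IRF5 was the tested member that did not pass. The gene (ENSG00000128604) lies on chromosome 7 from 128937457 to 128950038. Its level was 7.60, 7.31 and 5.49 FPKM in control libraries and 8.0, 8.22 and 7.38 FPKM with IFN-beta. The groups overlapped, since control library 1 exceeded IFN-beta library 3, and control library 3 was the lowest of all. The log2 change was 0.21 ± 0.114 (limma adjusted p = 0.175). Its 95% interval of -0.05 to 0.47 includes both 0 and the changes of IRF1, IRF2 and IRF3. Without control replicate 3 the change was 0.07 (limma adjusted p = 0.485).

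**Figure D2:**
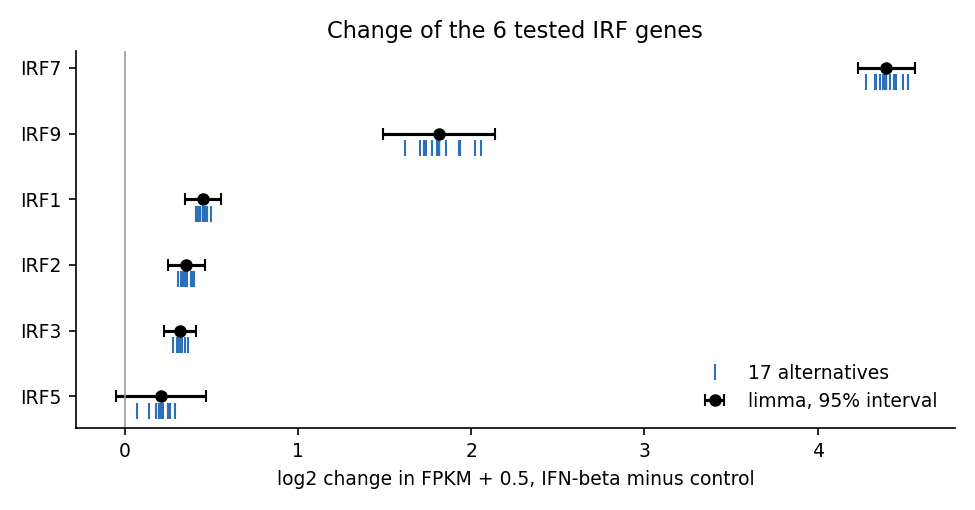
Log2 change of the 6 tested IRF genes, IFN-beta minus control, as a point with its 95% interval, and under 17 alternative settings as blue ticks below. IRF7 (4.40) and IRF9 (1.82) stand apart from IRF1, IRF2 and IRF3 (0.32 to 0.45), and the interval of IRF5 spans 0.

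IRF4 and IRF8 were near the limit of detection. A count of 3 reads was taken as the floor, which corresponds to 0.0684 FPKM for IRF4 and 0.117 FPKM for IRF8 in the shallowest library. IRF4 (ENSG00000137265, chromosome 6 from 391752 to 411443) had 2, 0 and 1 reads in control and 1, 2 and 6 reads in IFN-beta libraries. IRF8 (ENSG00000140968, chromosome 16 from 85899162 to 85922606) had 1, 3 and 0 reads in control and 6, 6 and 4 reads in IFN-beta libraries. IRF8 was thus above the floor in all 3 IFN-beta libraries and in none of the control libraries. With no filter on level, limma gave an adjusted p of 0.0504 for IRF8 and 0.457 for IRF4 over 30507 genes. No fold is given for either, with 4 and 3 reads over all control libraries.

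The order of the family changed with IFN-beta. In control libraries IRF1 (73.9 ± 3.62 FPKM) and IRF3 (70.1 ± 1.78) came first, with ranges that overlapped, and IRF2 (53.1 ± 1.77) followed apart from them. IRF5 (6.80 ± 1.14) and IRF7 (5.26 ± 0.415) overlapped, IRF9 (1.79 ± 0.344) lay below them, and IRF8 and IRF4 overlapped at the end. With IFN-beta IRF7 (120.9 ± 10.1 FPKM) came first and stood apart from IRF1 (101 ± 3.45), which in turn stood apart from IRF3 (87.7 ± 2.88) and IRF2 (68.0 ± 3.29). IRF9 (7.55 ± 1.24) reached the range of IRF5 (7.87 ± 0.440).

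For 7 of the 8 members the gene's span in the table differed from that in GENCODE 29, so shared and total exonic bases are those of that release and may differ from the annotation the authors used. The levels divide reads by a length that the table implies, which was near the mean transcript length of each gene in GENCODE 29. For IRF7 that length was 1343 bases, against a mean of 1378 and 2628 exonic bases in all, and for IRF1 1557 bases, against 1559 and 7799. Dividing by all exonic bases put IRF3 above IRF1 in both groups and IRF7 above IRF5 in control libraries. It also kept IRF9 below the range of IRF5 with IFN-beta. IRF7 was first with IFN-beta on both scales. The ratio of a gene between groups does not depend on this length.

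Summed over the 8 genes, the level was 211 ± 7.68 FPKM in control libraries and 394 ± 7.30 FPKM with IFN-beta (n = 3 each). IRF7 made up 63.4% of that rise in FPKM, a part that depends on the length by which reads are divided. The share of IRF7 in the summed FPKM was 2.37%, 2.30% and 2.84% in control libraries and 29.3%, 29.7% and 33.1% in IFN-beta libraries. Per exonic base, a scale added after seeing the data, the share of IRF7 in the summed group means was 5.24% in control and 49.1% with IFN-beta. IRF1 went from 35.0% ± 0.483 to 25.7% ± 0.803 of the summed FPKM, IRF3 from 33.2% ± 0.373 to 22.3% ± 0.910 and IRF2 from 25.2% ± 0.514 to 17.3% ± 1.06, although the level of each rose.

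**Figure D3:**
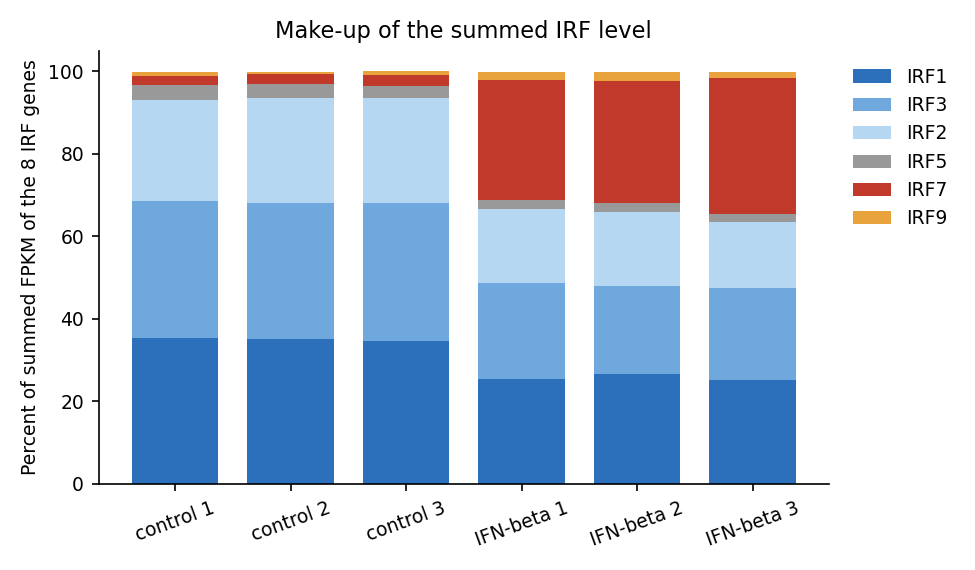
Share of the summed FPKM of the 8 IRF genes taken by each of 6 genes in every library, as stacked bars in percent; IRF4 and IRF8 are too small to draw. IRF7 takes 2.30% to 2.84% in control libraries and 29.3% to 33.1% with IFN-beta.

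Ratios within a library do not move with the scaling between libraries, and 4 were compared. IRF7 to IRF3, the induced against the constitutive sensor-linked factor, was 0.0716, 0.0696 and 0.0842 in control and 1.26, 1.39 and 1.48 in IFN-beta libraries. The log2 ratio differed by 4.20, with no overlap (exact permutation test, two-sided, p = 0.1, which is the lowest value possible with 3 libraries a group, and 0.133 adjusted over the 4 ratios). IRF7 to IRF9 went from 3.02 ± 0.604 to 16.4 ± 4.01, a difference of 2.44 in log2 ratio with the same p values.

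IRF1 to IRF2, the activator against the repressor, was 1.44, 1.38 and 1.35 in control and 1.42, 1.49 and 1.56 in IFN-beta libraries. These ranges overlapped (log2 ratio difference 0.10, two-sided exact permutation p = 0.2, adjusted 0.2). IRF9 to its partner STAT2 was 0.142, 0.0988 and 0.120 in control and 0.0906, 0.0984 and 0.0740 in IFN-beta libraries. Both genes rose, STAT2 by more, and the log2 ratio differed by -0.45 (two-sided exact permutation p = 0.1, adjusted 0.133), with the nearest libraries of the groups at 0.0988 and 0.0984. The shared exons of IRF9 enter this ratio too.

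**Figure D4:**
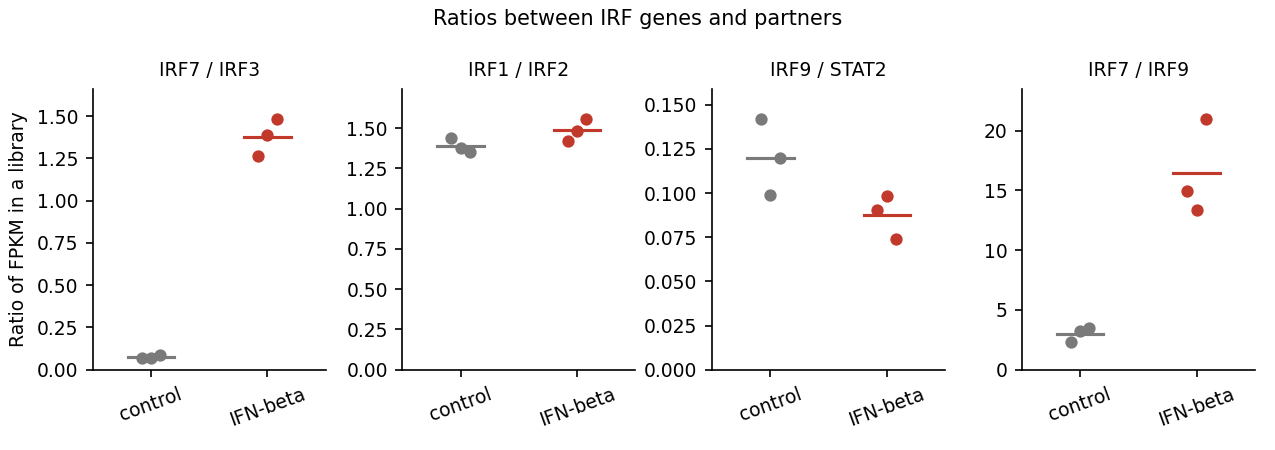
Ratio of FPKM within each library for 4 gene pairs, grey for control and red for IFN-beta, with bars at the group means and each axis starting at 0. IRF7 to IRF3 rises from below 0.1 to above 1.2, while IRF1 to IRF2 overlaps between groups.

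STAT2, the partner of IRF9 in ISGF3, went from 14.9 ± 0.973 to 85.9 ± 3.01 FPKM (n = 3 each), a rise of 2.49 ± 0.055 on the log2 scale (limma adjusted p = 2.83e-09). Values for the receptor chains and their kinases were smaller. The kinase JAK1 rose by 0.31 and the receptor chain IFNAR2 by 0.32 (limma adjusted p = 0.0308). The kinase TYK2 (0.11, limma adjusted p = 0.145) and the receptor chain IFNAR1 (-0.03, limma adjusted p = 0.659) did not pass. IFNAR2 lost its call when control replicate 1, 2 or 3 (limma adjusted p = 0.0558, 0.0891 and 0.0504) or IFN-beta replicate 1 or 3 (0.0671 and 0.109) was dropped, and TYK2 gained one without control replicate 1 (0.0386).

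Genes that activate IRF3, IRF5 and IRF7 moved both ways. Of 17 kinases and adaptors tested, 9 were higher, 2 lower and 6 did not pass, with a median of 0.23. Over all genes tested 22.5% were called higher and 42.4% in either direction. MYD88, the Toll-like receptor adaptor that links to IRF7 and IRF5, went from 18.7 ± 0.562 to 40.2 ± 1.37 FPKM (log2 change 1.08 ± 0.047). STING1, the adaptor of cytosolic DNA sensing, rose by 0.87, the adaptor TICAM1 by 0.54 and IKBKE, the inducible kinase of IRF3 and IRF7, by 0.48. The kinases IRAK1 (0.06) and IKBKB (-0.03) did not pass. The 2 lower genes were DDX3X (-0.45), an RNA helicase that aids TBK1 signalling, and MAVS (-0.22), the mitochondrial adaptor of RNA sensing, both named after their values were seen. The MAVS call (limma adjusted p = 0.0213) ended without control replicate 1 or 2 (0.0558 and 0.0599), without IFN-beta replicate 1 or 2 (0.0721 and 0.0618), with no filter on level (0.0536) and after rescaling to the same sum (0.0574).

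Of 10 co-repressors, degraders and co-activators of IRF proteins, 5 were higher and 5 did not pass, with a median of 0.17. The share called higher over all genes tested was 22.5%. TRIM21, a ubiquitin ligase that targets several IRFs, went from 28.3 ± 0.829 to 104 ± 3.56 FPKM, a rise of 1.87 ± 0.043. PRDM1, a repressor that binds IRF-type sites, rose by 0.95 from 0.289 ± 0.0545 to 1.03 ± 0.136 FPKM. Its mean reached the filter only through the IFN-beta libraries, and at this level the change depends on the pseudocount, being 1.54 at 0.1 and 1.80 with voom on recovered reads. RBCK1, a ligase reported to act on IRF3, rose by 0.93 and IRF2BP2, a co-repressor of IRF2, by 0.29. The co-activators CREBBP (0.11) and EP300 (0.08) did not pass, although EP300 passed without control replicate 1 (limma adjusted p = 0.0217).

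The DNA-binding partners of IRF4 and IRF8 split by level. SPI1, the myeloid and B cell partner of both, had 5 reads over the control and 0 over the IFN-beta libraries, and with SPIB, BATF and BATF3 it was below the level tested. The other 4 listed genes were tested, and BATF2 reached the filter only through the IFN-beta libraries, so a count over the list says little. BATF2 had 6, 4 and 2 reads in control and 838, 883 and 981 reads in IFN-beta libraries, 0.0822 ± 0.0375 against 18.5 ± 1.71 FPKM (log2 change 5.03 ± 0.107, which understates the ratio at this control level, and 7.70 with voom on recovered reads). JUN rose by 0.80, JUNB by 0.33 and JUND by 0.30. JUNB (limma adjusted p = 0.0242) was 0.22 without control replicate 3 and lost its call without IFN-beta replicate 1 or 3 (0.0596 and 0.0855), with no filter on level (0.0889) and in eBayes without trend (0.0695).

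Known target genes were nearly all raised. All 14 ISGF3 targets were higher, with a median of 5.26 and a range of 1.56 to 8.61, led by MX2 (8.61), IFI6 (7.45), MX1 (7.07) and RSAD2 (6.06). Of 16 IRF1 targets 15 were higher, with a median of 1.19. For both lists the share called higher over all genes tested was 22.5%. The tryptophan-degrading enzyme IDO1 rose by 3.84, the GTPase GBP1 by 3.15, the checkpoint ligand CD274 by 2.11 and the peptide transporter TAP1 by 1.87, each beside a rise of 0.45 in IRF1 itself. Among these targets MX2, IDO1 and SOCS1 reached the filter on level only through the IFN-beta libraries. Their control means of 0.264, 0.423 and 0.475 FPKM lay below the pseudocount of 0.5, so their log2 changes understate the ratios. The ratio of the group means was 1117 for MX2, 30.1 for IDO1 and 3.72 for SOCS1. The cytokine IL15 (-0.03, limma adjusted p = 0.865) did not pass. Most of these genes also answer to other factors, and the lists were chosen with results of these data known.

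**Figure D5:**
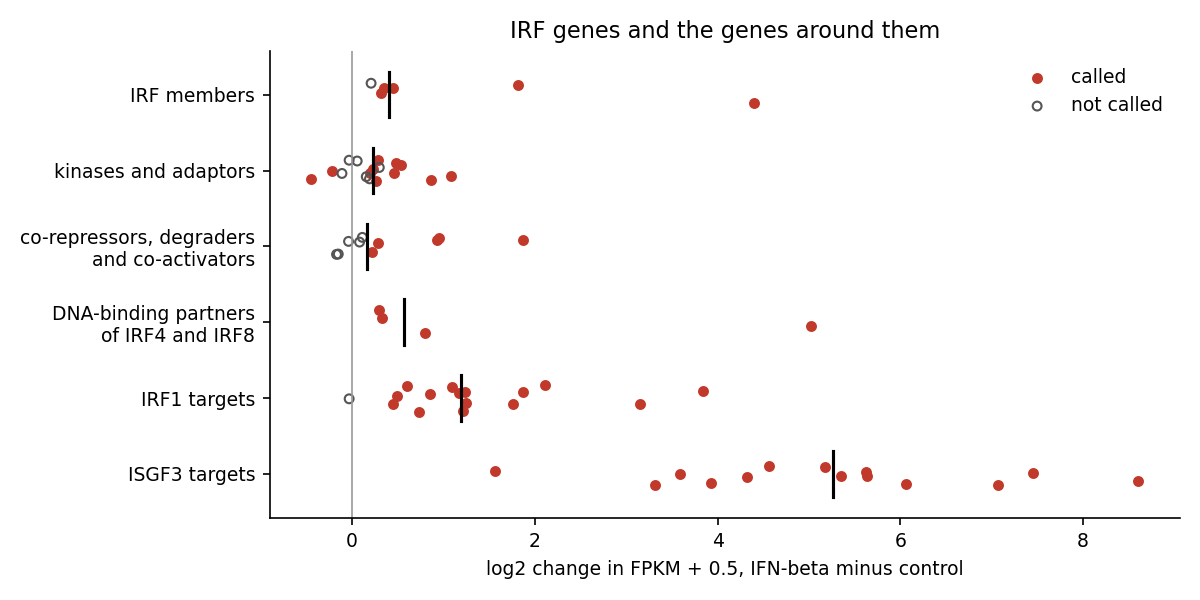
Log2 change of each tested gene, IFN-beta minus control, for the IRF genes and 5 lists around them; filled red points were called, open points were not, and black bars mark list medians (vertical positions within a list are spread for legibility). Medians run from 0.17 for the co-repressors, degraders and co-activators to 5.26 for the ISGF3 targets.

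Among the 1063 tested genes to which the deposited table gives a transcription factor family, 29.9% were called higher and the median log2 change was 0.09. IRF7 held place 2 of these by size of rise, after BATF2, and IRF9 place 12. At a pseudocount of 1 the change of IRF7 (4.28) exceeded that of BATF2 (4.17). IRF1 held place 111, IRF2 place 167, IRF3 place 205 and IRF5 place 345. These places rank the same changes as the places over all genes, so the order within the family is the same by construction.

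Profiles nearest to those of the members with a change of at least 1 were sought over the 6 libraries, as the root mean square difference of centred log2(FPKM + 0.5) values. Nearest to IRF7 were USP18 (0.0855), OAS1 (0.122) and IFI44 (0.148). USP18, which restrains receptor signalling, had nearly the level of IRF7 as well, at 5.50 ± 0.0517 and 119.5 ± 5.19 FPKM. Nearest to IRF9 were PPM1K (0.122), ARNT2 (0.133) and TXNIP (0.133), at log2 changes of 1.65, 1.95 and 1.79. The place of PPM1K rests on the pseudocount, since its control level was 0.276 FPKM and its change was 2.46 at a pseudocount of 0.1 and 2.81 with voom, where IRF9 was 2.02 and 2.06. With 2 groups of libraries, likeness is set mainly by the size of the change.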

How the data were processed

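RNA from 6 HaCaT libraries was sequenced. The authors deposited 1 table of FPKM. Per the labels' protocols CLC Genomics Workbench 11.0.1 was used, with no step named, while for aligner and counting program the sources used here give no name. Builds, per the submitters' processing notes, are GRCm38 and mm10, both mouse, whereas all 60671 identifiers are human. Of 58453 identifiers also in GENCODE 29 (GRCh38), 76.99% had the same position, but among the members only IRF3 did, so the build is inferred. Groups came from sample titles.

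A two-sided limma test (version 3.58.1, R 4.3.3, eBayes with trend) was run on log2(FPKM + 0.5) for the 15163 genes whose mean reached 0.5 FPKM. The fit was also run on simulated data with independent normal noise, which checks the code and not how well the model suits these libraries. Library totals and whole reads were recovered from steps of the FPKM within 0.01 reads for 30506 of 30507 genes above 0. The smallest gene length that gave whole reads was taken, so recovered reads are minimum values. A gene above 0 in 1 library only always comes out at 1 read. Reads are not independent molecules, so the floor of 3 reads covers counting error only. Ratios were compared by exact permutation tests.

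Members and lists were chosen with earlier results of these data known. Named are all members, overlapping genes with a mean of at least 0.5 FPKM, the nearest profiles and a fixed set. Up to 4 called and 2 uncalled genes per list are also named. Keratinocyte markers outside the fixed set are given only as a sum and a count. Beyond that rule, and after their values were seen, AL136295.5, DDX3X, MAVS, SOCS1, SPIB, BATF, BATF3, the unread or barely read interferon genes and the markers at 0 were named. A further gene of the family and a part of the receptor route list are not reported here. Alternatives were pseudocounts of 0.1 and 1, no filter, a minimum of 2 FPKM, 3 scalings, 2 eBayes settings, voom on recovered reads, the replicate block and each library left out. Levels per exonic base were added after seeing the data.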

Additional observations from a re-analysis of the deposited data

How the results depend on the processing

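The 5 calls among the members, and the 2 of at least 1 on the log2 scale, held under all 17 alternatives. Across these the change of IRF7 ran from 4.28 to 4.52, of IRF9 from 1.61 to 2.06, of IRF1 from 0.41 to 0.50, of IRF2 from 0.31 to 0.40, of IRF3 from 0.28 to 0.37 and of IRF5, never called, from 0.07 to 0.29. Counts in the lists and over all genes stayed within 1.5-fold. Same-numbered libraries did not deviate together (r from -0.098 to -0.052), and with the replicate block 5 members and 5817 genes were called. Signs turned only in genes that were not called. After rescaling to the same sum IFNAR1 was 0.0169, IKBKB 0.0125 and IL15 0.00469. Over left-out libraries IRAK1 ran from -0.00151 to 0.0896, IKBKB from -0.0961 to 0.00507, IL15 from -0.110 to 0.0840 and IFNE from -0.156 to 0.240. IFNE was also -0.0132 at a pseudocount of 0.1, -0.110 after quantile normalization, -0.00157 with size factors and -0.0470 with voom. IFNAR2 lost its call after quantile normalization (limma adjusted p = 0.125) and with no filter (0.0867). The causes were not tested. With 3 libraries a group, ratios cannot reach a p under 0.1, and IRF4 and IRF8 rest on too few reads for a fold.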

Other observations

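Interferon genes, some of which IRF3 and IRF7 are known to switch on, were barely read in these cells, apart from IFNE. Of the 10 listed, IFNW1, IFNA1, IFNA2 and IFNG had no read in any library. IFNE alone was tested, at 0.889 ± 0.0848 FPKM in control libraries and 0.931 ± 0.381 with IFN-beta (n = 3 each, limma adjusted p = 0.981). IFNK, the type I interferon of keratinocytes, had no read in the control libraries and 11, 7 and 3 reads in IFN-beta libraries 1 to 3, and with no filter on level limma gave it an adjusted p of 0.0325. IFNL1 had 0, 1 and 1 reads in control and 5, 3 and 2 reads in IFN-beta libraries, and IFNL2 had 0 and then 3, 3 and 1 reads. IFNL3 had no read in control and 1, 0 and 2 reads in IFN-beta libraries, so its groups overlapped. In the same unfiltered fit the limma adjusted p was 0.0704 for IFNL1, 0.0553 for IFNL2 and 0.302 for IFNB1. IFNB1 had no read in control and 2, 0 and 1 reads in IFN-beta libraries, so its transcript was not detectable above the floor of 3 reads at this depth.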
